A study of Mus musculus with 132 samples.

Results

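The metaphyseal cortical shell of the mouse tibia, taken 3 h after a single bout of loading, is described here from the 8 libraries whose titles name that segment and that time, 4 from loaded and 4 from control limbs. They came from 4 of the 22 mice studied, each of which gave 1 library per limb from 3 cortical segments. The mice were 10-week-old female C57Bl/6J animals. The loaded limb was the left tibia, compressed in vivo for 1200 cycles at 4 Hz, with a peak force of 9 N, on 1 day, and the control limb was the contralateral tibia of the same mouse, which received no loading. The loaded bone was therefore compared with an unloaded bone of an animal that had itself been loaded on the other side, and no sham-loaded or untouched mouse entered these 8 libraries. The cancellous bone had been removed, the remaining cortex was cut into metaphyseal, proximal diaphyseal and mid-diaphyseal segments, and each frozen segment was pulverised whole, so that marrow, periosteum, vessels and any adhering growth plate or muscle contributed RNA along with bone. The other shell libraries were 36 from 18 mice killed 1 h or 24 h after 1 bout or after 5 or 7 days of bouts, and the 2 diaphyseal segments of the same 4 mice gave 8 libraries each.

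Bone adapts to load mainly through osteocytes, cells buried in the matrix that sense strain and fluid flow. They answer with early transcription factors such as Fos and Egr1, with lower secretion of the Wnt antagonist sclerostin (Sost), and with Wnt and BMP signals that reach osteoblasts on the bone surface. The metaphyseal shell lies just below the growth plate, whose chondrocytes pass through resting, proliferating and hypertrophic stages and make a matrix of type II, IX and XI collagen, aggrecan and link protein, and type X collagen in the hypertrophic zone. The shell is also the site where resorption trims the wide metaphysis down to the width of the shaft.

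Whole reads behind the deposited normalized counts numbered 1073012, 2416731, 1738907 and 3494637 in the loaded libraries of mice 1 to 4, against 2158054, 2411495, 1737535 and 4983154 in their control libraries. Markers of osteoblasts were plentiful in every one of the 8 libraries, and of the 6 osteocyte markers only Fgf23 was at 0 in any of them. The 2 libraries of mouse 2 stood apart from the others. Reads of the ribosomal RNA precursor Rn45s made up 27.4% of the loaded and 27.5% of the control library of mouse 2, against 6.43% to 10.3% in the other loaded and 3.41% to 4.51% in the other control libraries. The libraries labelled shell of mouse 2 held almost no type X collagen RNA, with a Col10a1 value of 0 in the loaded and 1.31 in the control limb. Other segments of that mouse held much more, with 506 in the library labelled loaded proximal diaphysis and 540 in the library labelled control mid-diaphysis. As a check of position, 100 shell-high and 100 mid-diaphysis-high genes were taken from control limbs of the 18 mice of other times. The median log2 level of the first less that of the second was -0.48 in the loaded shell of mouse 2, against -1.17 in its control shell, and 0.71 in its control mid-diaphysis. The other 3 loaded shells were at -0.76, 0.82 and 0.27 in mice 1, 3 and 4, so that of mouse 1 was lower than that of mouse 2, and the other 3 control shells were at 0.56 to 1.36. Shells of other times ran from -1.53 to 1.11 in loaded and from -1.28 to 0.76 in control limbs, a range that holds both shells of mouse 2. Diaphyseal ranges of other times held them too. Proximal libraries ran from -3.04 to -0.09 in loaded and -3.63 to -0.16 in control limbs. Mid-diaphyseal libraries ran from -4.73 to -0.35 and from -6.14 to -0.88. The genes were also chosen in control limbs of those same 18 mice, so the score did not settle the segment of either library. The loaded proximal library of mouse 2 was at 0.35, against -2.33 to -0.93 in the other 3 mice, and the mid-diaphyseal control libraries of the other 3 mice were at -2.35 to -1.47.

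The loaded library of mouse 4 stood apart in another way. It was the single highest of the 8 libraries in 3602 and the single lowest in 2909 of the 11326 genes tested. Its root mean square deviation from the median of the other shell libraries was 1.19 on the log2 scale, against 0.42 to 0.83 in the other 7 libraries, and was the second largest among all 44 shell libraries. Values without mouse 2 or mouse 4 are therefore given beside results that they move.

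No gene differed between loaded and control shell after correction for the number of genes tested. Of 11326 genes tested with limma in a fit of all 44 shell libraries with mouse as a block, 0 reached an adjusted p under 0.05 (percent called 0.0), and the lowest adjusted p was 0.98. Differences were positive for 51.1% and negative for 48.9% of the genes. At an unadjusted p under 0.05 there were 152 genes with higher values (1.34%) and 280 genes with lower values (2.47%) in loaded shell, 3.81% in all. A count model, edgeR on the recovered whole reads, gave 0 genes at an adjusted p under 0.05, and 165 higher and 245 lower at an unadjusted p under 0.05. The values were higher in the loaded limb of 4 of 4 mice for 671 genes (5.92%) and lower in 4 of 4 for 514 (4.54%), and the 2 groups did not overlap for 120 genes with higher values (1.06%) and 78 with lower values (0.689%). The differences between loaded and control shell below are thus values with their errors, and none of the named genes passed the corrected test in this comparison.

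Most genes of resting and proliferating growth plate cartilage had lower values in the loaded shell of mice 1, 3 and 4, by several log2 units for some, without passing the corrected test. Of 27 genes of resting and proliferating cartilage, 22 passed the filter on low values, 17 had a negative difference, and 14 were lower and 0 higher at an unadjusted p under 0.05, against 2.47% lower over all genes. Their median difference was -1.44 on the log2(normalized count + 1) scale against 0.01 for all genes. The median within each mouse was -3.41, 0.04, -1.32 and -2.40 in mice 1 to 4, so mouse 2 showed none of it. Without mouse 2 the count was 17 of 22 and the median -2.33, where 2.46% of all genes were lower and 0.832% higher. Without mouse 4 it was 8 of 22 and -1.18, where 1.75% of all genes were lower and 1.49% higher, and without both mice it was 13 of 22 and -2.21, where 1.04% of all genes were lower and 0.523% higher. The share of Rn45s reads moved with these differences. It was 7.80%, 6.43% and 10.3% in the loaded shell of mice 1, 3 and 4, against 4.51%, 3.41% and 3.71% in their control shell, and level between the limbs of mouse 2; its part in the result was not tested. The list total did not follow in every mouse. Reads of the whole list made up 0.61%, 0.56%, 0.59% and 0.98% in loaded shell of mice 1 to 4. In control shell they made up 0.69%, 0.56%, 0.74% and 0.55%, so the total was higher in the loaded limb of mouse 4. The 5 tested list genes with a positive difference reached at most 0.57. Since these are whole pulverised segments, fewer chondrocytes and less RNA per chondrocyte cannot be told apart.

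Col10a1 encodes type X collagen of hypertrophic chondrocytes and lies on chromosome 10 from 34389981 to 34397085 on the plus strand of GRCm38. It overlaps the coding gene Nt5dc1 on the other strand. The normalized counts of Col10a1 were 9.23, 0, 175 and 3.87 in the loaded shell of mice 1 to 4, against 247, 1.31, 398 and 436 in the control shell. Every loaded library was below its own control, though in mouse 2 this rested on a few reads, since 1 read is worth 0.66 there. The loaded library of mouse 3 was the highest of its group and still below the control libraries of mice 1, 3 and 4. The groups overlapped through the low control library of mouse 2. The fitted difference was -3.37 (SE 1.14, 95% interval -5.73 to -1.01, unadjusted p = 0.00694), -4.09 without mouse 2 and -2.33 without mouse 4.

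The collagen IX chain gene Col9a3, on chromosome 2 from 180597790 to 180622189, had the lowest unadjusted p among the genes with lower values that the naming rule admitted. It was at 0, 0.66, 21.8 and 0 in loaded shell, against 116.99, 3.29, 84.6 and 41.4 in control shell, and was lower in 4 of 4 mice. In both libraries of mouse 2, 1 read is worth 0.66, so the sign in that mouse rests on a few reads. The fitted difference was -3.89 (SE 1.004, unadjusted p = 0.00069). Hapln1, which encodes the link protein that ties aggrecan to hyaluronan, was at 0, 2.65, 52.8 and 8.23 in loaded shell, against 136, 5.26, 143 and 63.8 in control shell, and its fitted difference was -3.03 (SE 0.86), and -1.67 without mouse 1. Loaded mouse 3 was again the highest of its group, and both libraries of mouse 2 were low.

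Promoter windows from the RefSeq table (GRCm38.p6, 250 bases before to 50 after the gene start) are shown for Col10a1 and Hapln1, a hypertrophic and a more general cartilage gene with lower values in the same 3 mice. Capitals mark matches on either strand to 3 sets of letters, TATAAA of the TATA box, ACAAT of the SOX factor core and AACCACA of the RUNX factors; the matches shown do not overlap. The windows are chr10:34389731-34390030 for Col10a1 and chr13:89540386-89540685 for Hapln1, both on the plus strand.
Col10a1: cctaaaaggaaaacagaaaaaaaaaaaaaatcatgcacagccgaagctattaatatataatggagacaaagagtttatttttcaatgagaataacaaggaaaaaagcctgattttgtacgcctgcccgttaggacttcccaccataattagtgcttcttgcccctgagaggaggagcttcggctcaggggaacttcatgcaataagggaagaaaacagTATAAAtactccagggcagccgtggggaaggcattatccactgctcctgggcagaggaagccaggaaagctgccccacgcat
Hapln1: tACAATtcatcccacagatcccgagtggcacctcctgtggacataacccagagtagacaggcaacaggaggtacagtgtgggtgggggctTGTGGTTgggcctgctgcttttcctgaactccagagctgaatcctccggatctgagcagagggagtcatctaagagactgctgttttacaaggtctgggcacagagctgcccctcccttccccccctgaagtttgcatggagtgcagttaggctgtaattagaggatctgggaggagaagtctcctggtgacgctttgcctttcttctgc
The TATA letters of Col10a1 begin 32 bases before its start. The Hapln1 window has the SOX letters 249 bases and, on the minus strand, the RUNX letters 160 bases before its start. Among all 32851 windows of this length, 13.6% hold the TATA letters, 31.0% the SOX letters and 5.27% the RUNX letters, so such matches are common and describe the letters only. Of 14 cartilage genes looked up, 10 had a window, and only Hapln1, Col10a1 and Ucma held any of the 3 sets of letters. The Hapln1 window lies inside the gene as GENCODE places it, from 89539796, so the sources differ on its start.

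Several matrix and regulatory genes of the chondrocyte had a like pattern with smaller differences where the gene is also read outside cartilage. Sox9, the transcription factor of the chondrocyte lineage, was at 38.1, 23.8, 28.9 and 33.9 in loaded shell, against 123, 34.2, 79.7 and 68.0 in control shell. Every loaded library was below its own control, and only the control library of mouse 2 fell within the loaded range; the fitted difference was -1.15 (SE 0.44, unadjusted p = 0.0155). Col2a1, the main collagen of cartilage, was at 706, 733, 775 and 224 in loaded shell, against 1658, 702, 1278 and 894 in control shell, a difference of -0.97 (SE 0.42), and -0.63 without mouse 4. Acan, which encodes aggrecan, was at 32.3, 13.9, 35.2 and 4.36 in loaded shell, against 73.8, 15.1, 100.7 and 59.3 in control shell. Mia, a small secreted protein of chondrocytes, was at 0, 1.32, 34.5 and 4.36, against 72.2, 0, 77.6 and 43.3, and the matrilin gene Matn3 at 0, 0, 9.86 and 0.48, against 47.02, 0, 44.7 and 13.9. For Acan, Mia and Matn3 the unadjusted p was 0.024, 0.0196 and 0.00949. Their differences of -1.57, -2.29 and -2.75 were -0.92 for Acan without mouse 4, and -0.99 for Mia and -1.80 for Matn3 without mouse 1. Among the 9 genes of the hypertrophic list that were tested, Col10a1 alone was lower at an unadjusted p under 0.05, and the median difference was 0.01; most of the others, such as Alpl, Ibsp, Spp1 and Mmp13, are also osteoblast genes. Ihh, the growth plate signal made by prehypertrophic cells, did not pass the filter and had values of at most 3.5 in the 8 libraries.

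**Figure D1:**
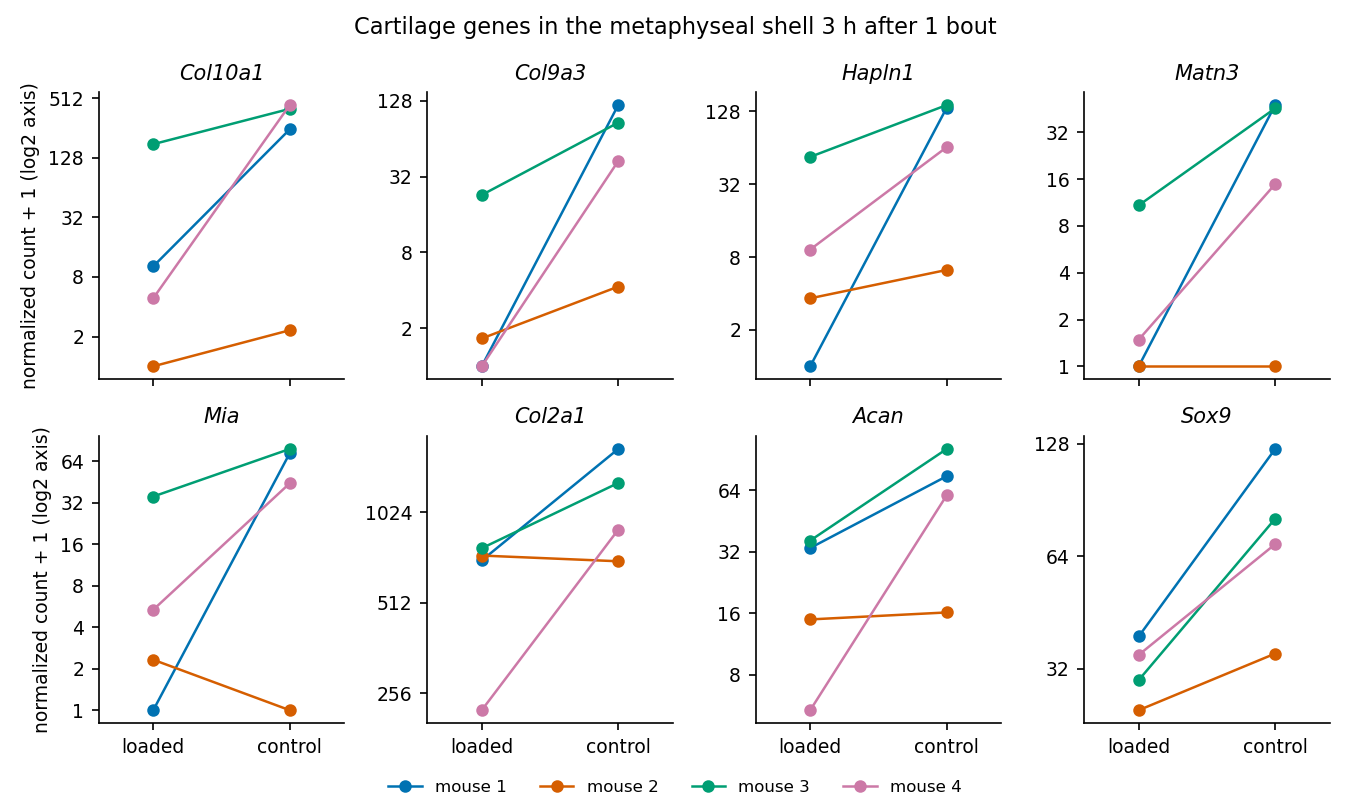
Normalized counts plus 1, on a log2 axis, of 8 cartilage genes in the loaded (left) and control (right) metaphyseal shell of 4 mice 3 h after 1 bout, with a line joining the limbs of a mouse. Mice 1, 3 and 4 slope upward towards the control limb in every panel, with Col10a1 at 9.23, 175 and 3.87 in loaded shell against 247, 398 and 436 in control shell, while mouse 2 has values close to each other in both limbs, at 0 and 1.31 for Col10a1.

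A sum of cartilage markers also varied widely between shells at the other times. The summed normalized counts of 12 cartilage markers were 755, 757, 1196 and 256 in the loaded shell of mice 1 to 4 at 3 h, against 2759, 730, 2494 and 1704 in the control shell. Most of the loaded sums was Col2a1, at 706, 733, 775 and 224. The loaded mid-diaphysis of mouse 4 summed to 1814 with 8 of the 12 markers at 0. The sum therefore follows Col2a1 and is not a measure of the amount of cartilage RNA. In the 36 libraries of other times the sum ran from 301 to 9296 in loaded and from 504 to 7254 in control shell, and the loaded sum was lower than the control sum in 10 of 18 mice, with log2 ratios from -3.15 to 1.54 and a median of -0.20. At 3 h the ratio was negative in 3 of 4 mice, with a median of -1.47. One mouse of the 24 h group had a ratio of -3.15 and 2 mice of the 5-day group had ratios of -1.94 and -2.22. The differences of this sum in single mice at 3 h thus lay inside the range seen at other times. Of the 100 shell-high genes taken from the other mice, the 91 that belong to no cartilage list had a median difference of -0.01 between loaded and control shell at 3 h. That median joined mice of opposite sign, at -0.47, 0.22, -0.08 and 0.25 in mice 1 to 4. It was -0.13 with 25 of 91 positive without mouse 4, and -0.26 with 11 of 91 positive without mice 2 and 4.

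**Figure D2:**
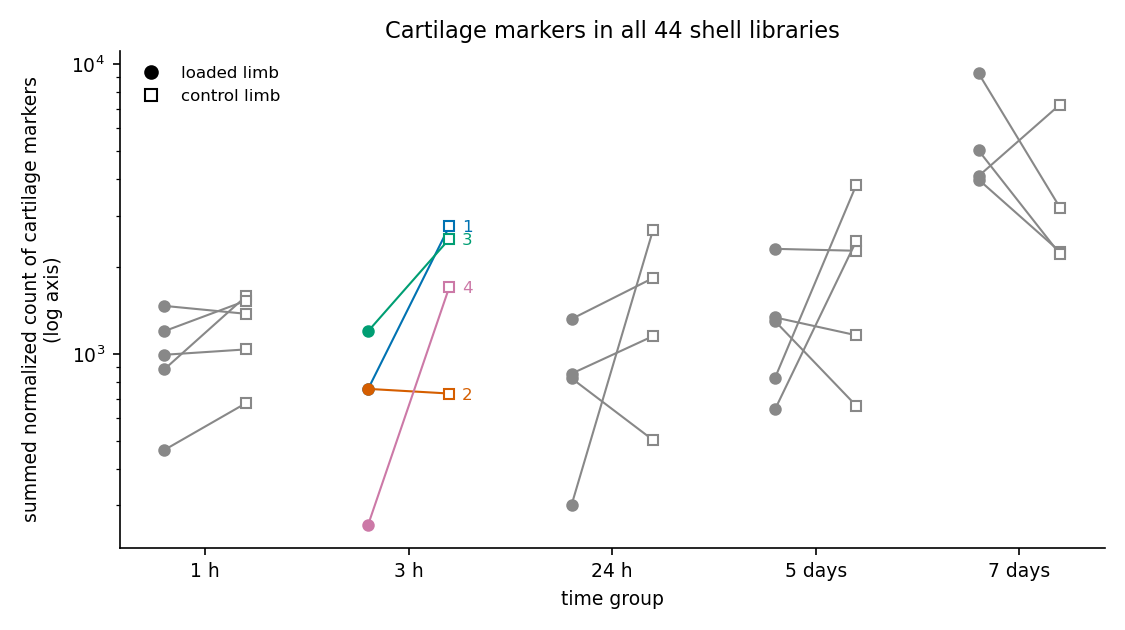
Summed normalized counts of 12 cartilage markers, on a log axis, in the loaded (filled, left) and control (open, right) limb of all 22 mice, by time group, with the 4 mice of the 3 h group numbered and in colour. At 3 h the loaded limb is below the control limb in mice 1, 3 and 4 and level with it in mouse 2 (757 against 730), and pairs at 24 h and 5 days include drops of the same size. Col2a1 makes up most of the sum in the loaded shells at 3 h.

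Genes by which osteocytes answer load showed small differences with wide intervals in loaded shell. Dmp1, a matrix phosphoprotein of osteocytes that rises with loading in mouse bone, was at 166, 126, 111.3 and 244 in loaded shell, against 150, 160, 69.2 and 96.2 in control shell. It was higher in 3 of 4 mice, but the groups overlapped, and the fitted difference was 0.45 (95% interval -0.31 to 1.21) and 0.16 without mouse 4. Sost, which encodes sclerostin, was at 54.2, 153, 54.9 and 58.6 in loaded shell, against 85.8, 101.2, 62.2 and 66.1 in control shell. The loaded libraries of mice 1, 3 and 4 were below every control library and that of mouse 2 was above them all; the fitted difference was -0.10 (interval -0.70 to 0.50) and -0.33 without mouse 2. Mepe, a matrix protein of osteocytes, was at 204, 220, 114.8 and 172 in loaded shell, against 121.4, 182, 144 and 133.2 in control shell, a difference of 0.27 (interval -0.19 to 0.72). Of 14 osteocyte genes tested, 0 were higher and 1 was lower at an unadjusted p under 0.05, and their median was 0.06. The lower one was Cd109, a membrane protein that binds TGF-beta, with a mean of 89.7 ± 39.6 in loaded and 129.4 ± 17.2 in control shell (SD, n = 4 each); its difference of -0.63 was 0.02 when mice 2 and 4 were left out.

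The immediate early genes had levels in loaded shell much like those in control shell at 3 h. Fos, a component of the AP-1 factor, was at 16.2, 13.2, 9.16 and 14.04 in loaded shell, against 13.1, 7.89, 16.8 and 12.9 in control shell, and Egr1, a zinc finger factor, was at 53.1, 88.7, 40.9 and 82.8 against 60.7, 77.6, 49.6 and 57.9. Loaded and control values were interleaved for both, with differences of 0.07 (interval -1.002 to 1.13) for Fos and 0.06 (interval -0.42 to 0.54) for Egr1, whose sign turned under several settings. None of the 17 immediate early genes tested reached an unadjusted p under 0.05, and 10 had a positive difference. Fosb and Atf3 did not pass the filter, with at most 1.65 and 2.42 in any of the 8 libraries.

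Among Wnt genes the ligand Wnt7b, which promotes bone formation when supplied to osteoblasts in mice, had higher values in loaded shell. It was at 11.5, 6.62, 10.6 and 25.2 in loaded shell, against 7.65, 1.31, 8.39 and 6.59 in control shell. It was higher in 4 of 4 mice, but the lowest loaded value lay inside the control range; the difference was 1.09 (SE 0.49, interval 0.08 to 2.09, unadjusted p = 0.0362), 0.87 without mouse 2 and 0.42 without mice 2 and 4. It was the 1 gene of 12 tested Wnt ligands and targets with higher values at an unadjusted p under 0.05, and 0 had lower values. The Wnt target Axin2 and the ligand Wnt1 did not pass the filter. The Wnt antagonist gene Frzb, which chondrocytes express strongly, was at 28.9, 40.4, 92.97 and 38.2 in loaded shell, against 83.6, 30.2, 159 and 94.6 in control shell. Its difference was -0.79 (SE 0.37), and it was lower in the same 3 mice as the cartilage genes. Of the 8 secreted Wnt antagonist genes tested, 4 had a positive and 4 a negative difference, with a median of -0.0047. Among 19 BMP and TGF-beta genes, the BMP antagonist Grem1 alone reached an unadjusted p under 0.05 with all mice, at 9.23, 0, 5.63 and 1.94 in loaded shell, against 13.1, 13.8, 8.39 and 5.18 in control shell. The difference of -1.48 rested on mouse 2 and was -0.68 without it, when 0 of the 19 genes were lower at an unadjusted p under 0.05. The ligand Bmp2 was at 68.1, 68.2, 62.0 and 97.3 in loaded shell, against 62.3, 67.0, 71.3 and 47.3 in control shell, and its difference of 0.24 was -0.02 without mouse 4.

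Timp1 and Ptprz1 had higher values in the loaded shell of 4 of 4 mice without passing the test. Timp1, an inhibitor of matrix metalloproteinases, was at 195, 118.5, 181 and 152 in loaded shell, against 97.3, 118.3, 157 and 135 in control shell; in mouse 2 the limbs were level, and the difference was 0.34 (interval -0.15 to 0.83), and 0.12 without mouse 1. The receptor phosphatase gene Ptprz1 was at 72.7, 88.7, 76.8 and 102 in loaded shell, against 64.0, 82.8, 63.6 and 49.6 in control shell, a difference of 0.39 (interval -0.78 to 1.56), and 0.18 without mouse 4. Periostin (Postn), a periosteal matrix protein, was at 806, 255, 163 and 142 in loaded shell, against 134, 254, 161 and 178 in control shell. Its positive difference of 0.57 rested on mouse 1 and was -0.10 without it. Mouse 1 was also the high one for Lrrc15, a membrane protein of matrix-forming fibroblasts and osteoblasts, at 194, 46.98, 37.3 and 41.6 in loaded shell, against 21.3, 34.2, 23.8 and 30.4 in control shell. Here the groups did not overlap, and the difference was 1.16 (SE 0.45, unadjusted p = 0.0163), and 0.51 without mouse 1. The median over 19 periosteal, tendon and fibroblast genes was 1.501 in mouse 1 but -0.18 to 0.14 in mice 2 and 3 and -0.51 in mouse 4.

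Osteoblast genes were level between limbs. Col1a1, the main collagen of bone, averaged 77105 ± 7620 in loaded and 75926 ± 8629 in control shell (SD, n = 4 each), a difference of 0.02 (interval -0.69 to 0.74). Of 20 osteoblast genes tested, 0 reached an unadjusted p under 0.05 in either direction, and the median was 0.08. Of 15 osteoclast genes, 13 had a negative difference, with a median of -0.29, and none reached an unadjusted p under 0.05. The median was -0.33, 0.20, 0.01 and -0.70 in mice 1 to 4, and -0.10 with 6 of 15 positive without mouse 4. The tartrate-resistant phosphatase gene Acp5 was at 2401, 1343, 4531 and 2664 in loaded shell, against 3834, 1251, 5460 and 4343 in control shell, lower in 3 of 4 mice, with a difference of -0.39 (interval -0.96 to 0.18). For the collagen-degrading protease Ctsk, at 1113, 523, 693 and 143 in loaded shell, against 940, 436, 591 and 945 in control shell, 3 of 4 mice were higher and mouse 4 alone gave the negative difference of -0.50, which was 0.24 without it.

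**Figure D3:**
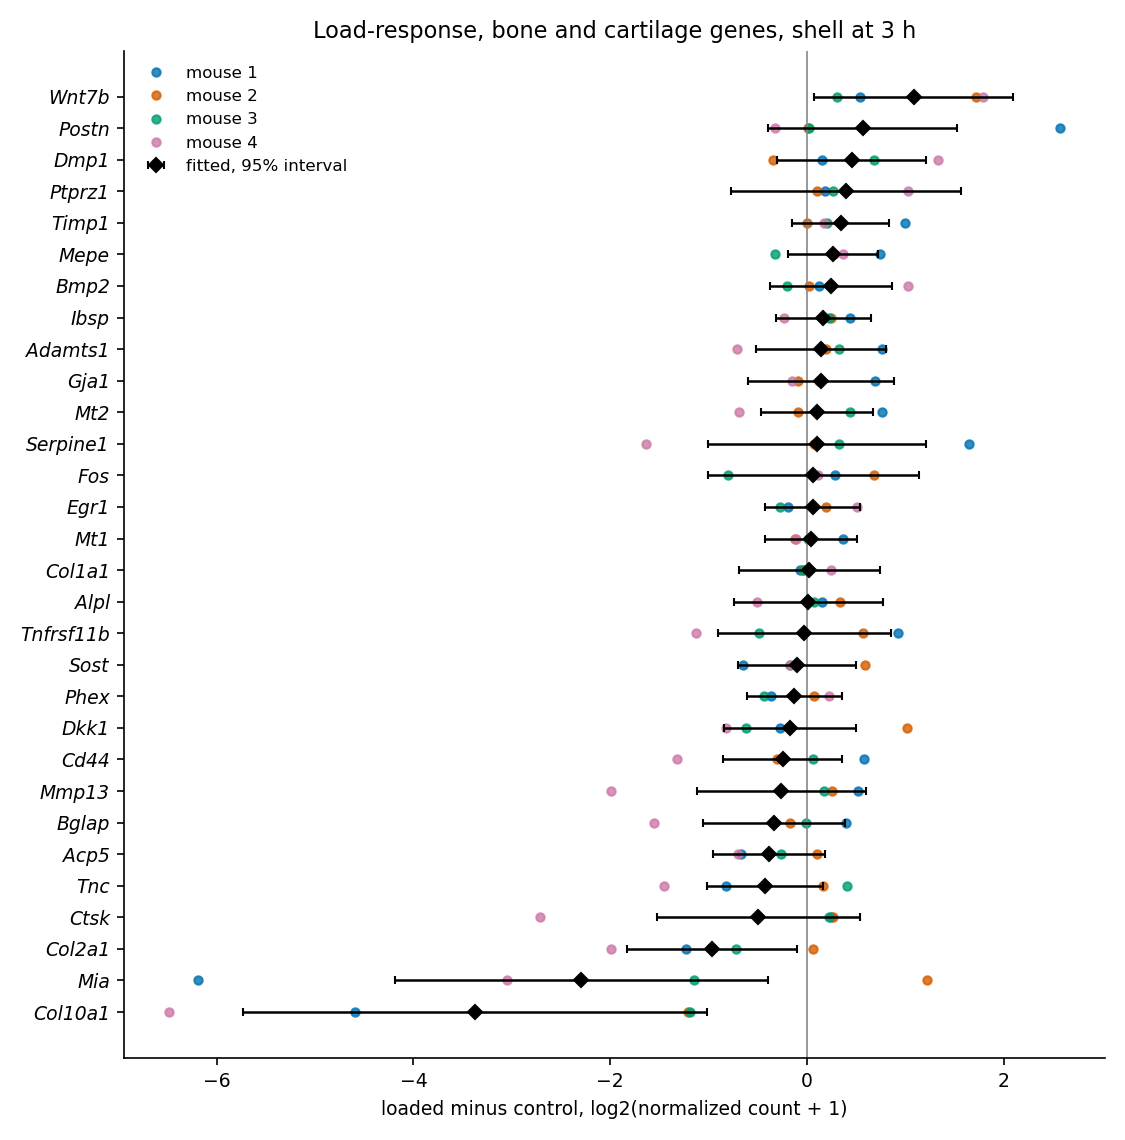
Loaded minus control difference, on the log2(normalized count + 1) scale, of the 30 genes of a panel of load-response, bone and cartilage genes that passed the filter on low values. Diamonds with bars are the fitted difference and its 95% interval, and coloured points are the 4 mice. Intervals of Wnt7b (0.08 to 2.09), Col2a1, Mia and Col10a1 (-5.73 to -1.01) do not include 0, and those of the other 26 genes do.

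The 12 genes with higher values in all 4 loaded limbs and the lowest unadjusted p came from unrelated processes. Tprkb, a subunit of the complex that modifies transfer RNA, was at 33.5, 38.4, 45.8 and 34.4 in loaded shell, against 19.7, 11.2, 23.1 and 24.5 in control shell. All loaded values lay above all control values, and the difference was 0.97 (SE 0.29, unadjusted p = 0.00276). Kif3b, a kinesin motor subunit needed for cilia, was at 115.4, 84.7, 86.6 and 229 in loaded shell, against 55.8, 76.9, 70.6 and 73.2 in control shell, again without overlap, and its difference of 0.77 was 0.49 without mouse 4. Diexf, a factor of ribosome assembly, was the third of the 12 whose groups did not overlap, at 35.8, 31.1, 33.8 and 69.7 in loaded shell, against 26.2, 19.7, 19.6 and 22.6 in control shell, a difference of 0.85, and 0.61 without mouse 4. Daxx, a histone chaperone, differed by 0.65, Parp9, an interferon-induced ADP-ribosyltransferase family member, by 1.16, and Adarb1, an RNA-editing adenosine deaminase, by 0.67. Fam219b, Arid3b, Ldb2, Fcrls and Jakmip1 had differences of 0.87 to 1.27. Without mouse 4 the difference was 0.88 for Fcrls, 0.77 for Jakmip1 and 0.44 for Adarb1, and that of Ldb2 was 0.44 without mouse 2. The loaded library of mouse 4 was the highest of the 4 loaded libraries for Fam219b, Arid3b, Parp9, Kif3b, Daxx, Fcrls, Jakmip1, Diexf and Adarb1.

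Among the 12 genes with lower values in all 4 loaded limbs, Col9a3 and Hapln1 were described above, and the rest were not cartilage genes. Thoc6, a subunit of the THO complex of messenger RNA export, was at 15.004, 17.2, 23.2 and 5.81 in loaded shell, against 28.4, 34.2, 30.8 and 37.9 in control shell, without overlap. The difference was -1.18 (SE 0.33, unadjusted p = 0.00137) and -0.74 without mouse 4. Thoc6 overlaps coding genes on the other strand. So do Col10a1, Col9a3, Sult1a1, Trim32, Hebp1, Parp9, Tprkb, Timp1, Hmox2, Cox6a2 and Acta1. The strand setting of the counting is not given in the sources used here, so their counts may include reads of those neighbours. Gng10, Jakmip1 and Mia overlap a coding gene on their own strand, and their counts may include its reads under any strand setting. Tie1, an orphan receptor of endothelial cells, was at 6.92, 17.2, 15.5 and 13.6 in loaded shell, against 22.96, 29.6, 20.3 and 21.2 in control shell, with a difference of -0.83, which was -0.98 to -0.57 when 1 mouse was left out and nearest 0 without mouse 1. It was the 1 of 16 endothelial genes at an unadjusted p under 0.05; 4 of the 16 had positive differences and their median was -0.20. Bbc3, a target of p53 that promotes apoptosis, was at 11.5, 32.4, 20.4 and 6.29 in loaded shell, against 32.3, 44.7, 23.1 and 21.9 in control shell, a difference of -0.92 (SE 0.27). Hebp1, a heme-binding protein gene, differed by -0.87, Trim32, a ubiquitin ligase gene, by -0.96, Mtmr14, a phosphoinositide phosphatase gene, by -0.81, and Gng10, a G protein gamma subunit gene, by -0.73, each without overlap between groups, and Gng10 was at -0.44 without mouse 4. The others were Sult1a1, Pef1 and Ccdc93, with differences of -0.91 to -0.80, of which Sult1a1 was at -0.51 without mouse 4 and Ccdc93 at -0.48 without mouse 2.

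Markers of tissues around the bone moved unevenly between limbs. Skeletal muscle genes were higher in 28 of 29 fits with a median of 0.82, but 0 reached an unadjusted p under 0.05. The median was 0.93, 2.04, -0.25 and 0.29 in mice 1 to 4 and 0.34 without mouse 2. Summed counts of 8 muscle markers were 3942, 879, 1559 and 528 in loaded shell, against 1775, 101.2, 1844 and 756 in control shell, so the groups overlapped. For the skeletal actin gene Acta1 the difference of 0.97 was -0.23 without mouse 2. The part of muscle RNA in the other differences was tested only by adding its mean level to the fit, which left 122 genes with higher and 249 with lower values at an unadjusted p under 0.05.

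Of the blood and marrow lists, each held at most 1 gene at an unadjusted p under 0.05. Ppbp, a chemokine stored in platelets, was at 531, 713, 670 and 259 in loaded shell, against 789, 1013, 682 and 788 in control shell. It was lower in 4 of 4 mice by -0.68 (SE 0.23, unadjusted p = 0.00627), and by -0.37 without mouse 4. The neutrophil chemokine receptor gene Cxcr2 was at 38.1, 29.8, 14.8 and 20.3 in loaded shell, against 14.2, 10.5, 12.6 and 16.5 in control shell, a difference of 0.82 (SE 0.34), while the median of 15 neutrophil genes was 0.03. The interferon-induced gene Ifit2 differed by 1.21 (SE 0.53), with values of at most 15.004. Of the 15 interferon response genes tested, 7 had a positive and 8 a negative difference, with a median of -0.13. Mesothelial markers summed to at most 9.23 in loaded and 5.41 in control shell. Ribosomal protein genes had lower values in loaded shell, with 55 of 71 differences negative and a median of -0.25. That median came from mouse 4, at -0.995, against -0.07, 0.01 and 0.03 in the other 3 mice, and was -0.00041 without mouse 4. Rpl29, a ribosomal protein gene at an unadjusted p under 0.05, differed by -1.19 with all mice and by -0.34 without mouse 4; ribosomal protein genes have processed copies elsewhere in the genome that reads may be shared with.

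**Figure D4:**
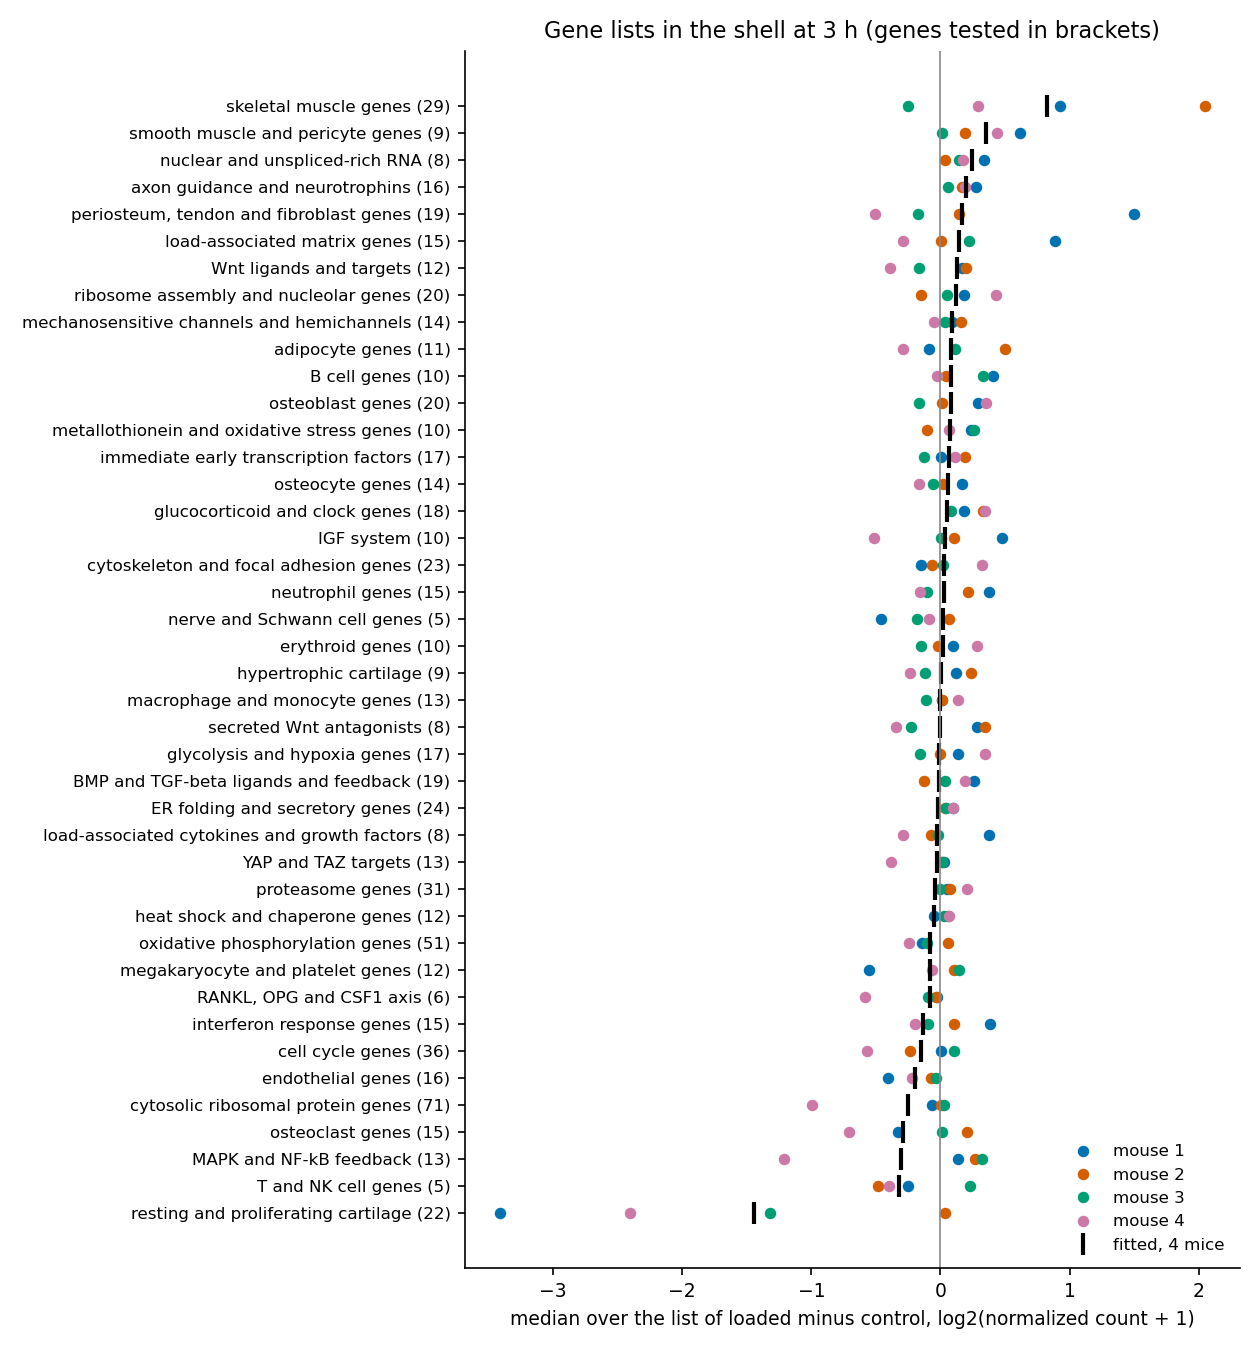
Median loaded minus control difference, on the log2(normalized count + 1) scale, over the tested genes of 42 gene lists in the shell at 3 h, with 1 point per mouse and a bar for the fit of 4 mice. Resting and proliferating cartilage genes lie farthest below 0, at -3.41, -1.32 and -2.40 in mice 1, 3 and 4 but 0.04 in mouse 2, and muscle genes are spread from -0.25 to 2.04.

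The response at 3 h was set against those at 1 h and 24 h, which come from other mice. No gene differed at an adjusted p under 0.05 (percent called 0.0 in both), and at an unadjusted p under 0.05 there were 278 genes (2.45%) for 3 h less 1 h, with 1.32% more positive and 1.14% more negative at 3 h, against 57 and 57 (0.503% each) for 3 h less 24 h. For Egr1 the loaded minus control difference was 0.06 at 3 h and averaged 0.93 ± 0.34 at 1 h (SD, n = 5), and the difference between times was -0.88 (SE 0.31, unadjusted p = 0.00988, adjusted p = 1.0 with limma). For Fos it was 0.07 at 3 h and 0.93 ± 1.11 at 1 h. The metallothionein genes Mt1 and Mt2, which bind zinc and respond to stress hormones, differed between limbs by 0.04 and 0.10 at 3 h and averaged -1.13 ± 0.66 and -1.10 ± 0.48 at 24 h (SD, n = 4), and their differences between 3 h and 24 h were 1.17 (SE 0.32) and 1.21 (SE 0.39). Mt1 was at 763, 453, 827 and 486 in loaded shell at 3 h, against 591, 492, 820 and 524 in control shell. Wnt7b differed by 1.09 at 3 h and by -1.21 ± 1.18 at 24 h (SD, n = 4), and the difference between times was 2.29 (SE 0.69). Other genes with low p at 3 h against 1 h were Trim32 at -1.24, Mtmr14 at -1.03, Ppbp at -0.91, Hmox2, a heme oxygenase gene, at -0.81, Fam219b at 1.03, Kif3b at 0.94 and Xdh, the xanthine dehydrogenase gene, at 0.88. At 3 h against 24 h they were Tie1 at -1.18, Manbal at -0.90, Pef1 at -0.89, Gng10 at -0.84, Ldb2 at 1.12 and Daxx at 0.85. The cartilage list had a median of -0.49 at 1 h and -0.81 at 24 h beside -1.44 at 3 h, and 1 of its 22 genes differed between 3 h and 1 h at an unadjusted p under 0.05, and 0 between 3 h and 24 h.

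In the same 4 mice the response of the shell was compared with that of the 2 diaphyseal segments. Against the proximal diaphysis 0 of 10025 genes differed at an adjusted p under 0.05 (percent called 0.0), and 12 (0.12%) were more positive and 210 (2.09%) more negative at an unadjusted p under 0.05 (2.21% in all), with a median of -0.31 over all genes. The excess of negative values rested on mouse 3, without which 61 were more positive and 82 more negative and the median was -0.08. The control proximal library of mouse 3 held 363148 reads over 7915 genes, against at least 806140 reads in each of the other 7 proximal libraries at 3 h. The lowest p values included cartilage genes, with Hapln1 at -5.41 (SE 1.06), the chondromodulin gene Lect1 at -4.83, Col9a2 at -4.30 and Col9a1 at -4.22. These differences of differences took in the loaded proximal library of mouse 2, which held 96.5 of Hapln1 against 4.19 in its control, besides the shell libraries. Without mouse 2 the difference was -5.54 for Hapln1, -4.40 for Col9a2 and -4.63 for Col9a1. Of the cartilage list, 13 of 19 genes tested were more negative at an unadjusted p under 0.05 with all mice (median -3.37). Without mouse 2 it was 9 of 17 (median -2.99), where 318 of all 9741 genes were more negative and their median was -0.37. Without mouse 3 it was 5 of 11 (median -1.23), where 82 of all 9764 genes were more negative. Hapln1, Col9a1, Col9a2 and Lect1 did not pass the filter without mouse 3. Among the more positive genes that the naming rule admitted, Sfn, F11r, Ccnf and Treml1 had the lowest unadjusted p, at 1.08 to 2.61. Without mouse 2 their differences were 2.10, 1.65, 2.37 and 1.08, and none of these genes kept an unadjusted p under 0.05.

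Against the mid-diaphysis 0 of 10177 genes differed at an adjusted p under 0.05 with all mice (percent called 0.0), and 396 (3.89%) were more positive and 281 (2.76%) more negative at an unadjusted p under 0.05 (6.65% in all). That balance turned with 1 mouse, at 365 more positive and 502 more negative without mouse 4, and 337 and 137 without mouse 2, and upper-quartile scaling gave 550 and 217. The clearest bone gene was Dmp1, whose loaded minus control difference was smaller in the shell of every mouse. In the mid-diaphysis Dmp1 was at 1115, 381, 1726 and 739 in loaded limbs, against 149, 70.8, 223 and 111.8 in control limbs, with no overlap and a mean log2 difference of 2.74 ± 0.24 (SD, n = 4), beside 0.45 in the shell. The difference between segments was -2.29 (SE 0.41, adjusted p = 0.227 with limma). It was -2.59 with an adjusted p of 0.0277 without mouse 4, so that the call depends on mouse 4. Without mouse 1, 2 or 3 the limma fit gave -2.13, -2.13 and -2.29, with adjusted p of 0.676, 0.145 and 0.894. Spp1, the osteopontin gene, differed by -1.75 (SE 0.45), and by 0.01 in the shell alone. The BMP pseudoreceptor gene Bambi was at -2.75 and the small RNA host gene Snhg8 at -2.33.

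Muscle genes were part of the more positive side of that comparison, which held 396 genes (3.89%) at an unadjusted p under 0.05. All 28 muscle genes tested were more positive in the shell at an unadjusted p under 0.05, with a median of 3.96, which was 5.53 without mouse 2 and 2.26 without mouse 4. Without mouse 2 there were 24 genes at an adjusted p under 0.05, 15 of them in the muscle list. Acta1, Mylpf, the triadin gene Trdn and Cox6a2 led by p, with Acta1 at 4.28 (SE 0.67, adjusted p = 0.186 with limma), and an adjusted p of 0.0132 without mouse 2 and 0.0277 without mouse 4. The muscle level of the mid-diaphysis moved with it, since Acta1 there was at 116.7, 82.6, 551 and 148 in loaded limbs, against 1789, 8.74, 7976 and 56775 in control limbs. In the shell Acta1 was at 986, 269, 434 and 64.4 in loaded limbs, against 469, 10.5, 440 and 215 in control limbs. The part of the control mid-diaphyseal muscle level in this difference was not tested.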

How the data were processed

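RNA of pulverised cortical segments was sequenced by 3′ mRNA-seq. The deposited table holds the authors' normalized counts per gene; per the submitters' processing notes STAR, FastQC, DESeq2 and the mm10 build were used, while versions, the counting tool and strand setting are not given in the sources used here. The deposited values, a read signal scaled per library by the authors, were divided by the smallest value above 0 in the library. They were then whole within 0.02 for 100% of values. For loaded against control shell, edgeR on these recovered reads called 0 genes. Of 23412 rows, 27 date-like symbols were left out and 4897 were 0 in every library.

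Genes that reached 10 in 4 or more of the libraries fitted were tested with limma 3.58.1 (R 4.3.3; trend, two-sided, Benjamini-Hochberg over all genes) on log2(value + 1), which understates changes of low genes. The fit held 44 shell libraries, mouse as a block and a limb effect per time, so the spread is that of the shell; edgeR 4.0.16 was an alternative. Segment responses were compared as differences of paired differences within the 4 mice. Pairing comes from the limbs of 1 animal; deviations of same-mouse limbs correlated at 0.17, 0.35, 0.34 and -0.02 in mice 1 to 4. Each mouse gave 1 library per limb and segment. Named genes were, with a mean of at least 20 in a limb and 1 sign in 4 mice, the 12 lowest unadjusted p in each direction, the 4 lowest per direction in each other comparison, a panel of 40 genes, list members with an unadjusted p under 0.05, and up to 4 further members of a list. Some genes that this rule admits are not reported here. Members, panel and 42 lists were chosen with earlier results of these data known. Positions are GENCODE vM21 (GRCm38). The fit was also run on simulated reads without mouse effects or outlying libraries. That setting is unlike these libraries, so the run does not bear on the calls made here.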

Additional observations from a re-analysis of the deposited data

Results flagged for a closer look

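In each group of 4 libraries, the values of 55 genes, the read total and the Rn45s share were searched for a sample far from the other 3, by Dixon's criterion at the 95% level, and 14 were found; chance alone gives about 1 in 20 of such groups. In the loaded shell, mouse 3 was far above the other 3 loaded libraries for Col10a1 (175), Col9a3 (21.8), Hapln1 (52.8), Matn3 (9.86) and Mia (34.5). These 5 cartilage genes are not independent of each other. Mouse 4 was far below the other loaded libraries for Col2a1 (224) and far above them for Fcrls (68.7), Jakmip1 (64.9) and Diexf (69.7). Mouse 2 was far above the other loaded libraries for Sost (153), and mouse 1 for Lrrc15 (194) and Ifit2 (15.004). In the control shell, mouse 2 was far above the others for Trim32 (40.1) and for the share of Rn45s reads (27.5%).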

How the results depend on the processing

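No gene reached an adjusted p under 0.05 for loaded against control shell, or for the comparisons with 1 h, 24 h and the proximal diaphysis, under each alternative run. Against the mid-diaphysis the count was 24 without mouse 2, 3 without mouse 4 and 1 with edgeR, so leaving out 1 mouse gave 0 to 24. Without the replicate block, that is without pairing the limbs of a mouse, the adjusted count stayed 0, with 281 genes at an unadjusted p under 0.05 against 432, and it changed no other adjusted call. That unadjusted count was 755 with no filter, 757 without mouse 3, 176 without mice 2 and 4 (added after seeing the data), 159 in a fit of the 8 libraries alone and 26 in a fit of all libraries of the series. With a mean of at least 50 it was 34 higher and 72 lower. Upper-quartile scaling gave 104 higher and 417 lower, beside 152 and 280, and moved the median of all genes to -0.06.

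Of 55 genes, 45 kept their sign in every setting run, and 20 of 849 refits turned sign. Leaving out 1 mouse gave -0.3336 to 0.0806 for Sost, -0.0166 to 0.3916 for Bmp2, -0.0998 to 0.8656 for Postn, -0.1391 to 0.3567 for Fos, -0.0911 to 0.1701 for Egr1, -0.05 to 0.0559 for Col1a1, -0.7489 to 0.2443 for Ctsk and -0.2254 to 1.8659 for Acta1. Without mice 2 and 4 the value was -0.0367 for Bmp2, -0.2633 for Fos, -0.2322 for Egr1, -0.0557 for Col1a1, 0.2355 for Ctsk, 0.0214 for Cd109 and 0.2778 for Rpl29. Upper-quartile scaling gave -0.0028 for Fos, -0.0126 for Egr1 and -0.0487 for Col1a1, and the muscle covariate -0.0913 for Fos. The cause was not tested. With 4 pairs, the 95% interval of a gene as well read as Egr1, not corrected for the number of genes, ran from -0.42 to 0.54. Smaller differences were not detectable, and far larger ones also went uncalled in the corrected test, with Col9a3 at -3.89 and Col10a1 at -3.37.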
